A study of Mus musculus with 462 samples.

Results

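Tnni1, the long noncoding RNA linc1423 and Mb were followed as 3 rows of a poly(A)+ RNA sequencing experiment with hybrid selection, in which probes enrich a library for chosen transcripts, in mouse embryonic stem cells. They are 3 of 692 captured transcripts listed together, and all 3 were listed in the libraries of 86 Control and 110 modified clones, of 439 RNA libraries among 462 samples. The 3 were chosen from measured values of these same clones. These were their spread and correlation over unmodified Control clones, and their levels and allele ratios in Control and modified clones. Their levels, ratios and correlations in Control and modified clones are therefore given as a description. Where a member is said to be called, it passed the threshold of a fit across all captured transcripts (adjusted p under 0.05), and such a call on a value that chose the member supports nothing further.

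Tnni1 encodes slow skeletal muscle troponin I, the subunit of the troponin complex that holds back contraction at low calcium. Mb encodes myoglobin, the oxygen-binding heme protein of skeletal and heart muscle. Neither is a usual marker of embryonic stem cells, and linc1423 is a noncoding transcript that lies on the chromosome of Tnni1. In clones of 2 alleles that differ in sequence, a local effect of a locus touches the copy on its own chromosome, while an effect through the rest of the cell touches both copies; the study compared the 2 copies to separate these cases.

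All libraries came from clones of a 129/Castaneus F1 hybrid female embryonic stem cell line, grown in serum-free medium with LIF, PD0325901 and CHIR99021 on gelatin and laminin. The sample labels give the line as female while the growth protocol names male cells. Control clones carry no named modification, and 77 of them bear the date label 150126 on 25 plates and 9 bear 150416 on 4 plates. The 9 linc1423-PromoterDeletion clones of 150126 are heterozygous for the deletion by the series design, and the labels do not name the deleted allele. Another 65 clones of 150126 have promoter deletions at 9 loci on other chromosomes: Crlf3 (9 clones), Gpr19 (5), linc1509 (7), linc1536 (6), linc2025 (8), Rcc1 (8), Slc30a9 (9), Snhg17 (5) and Snhg3 (8). The pAS groups, which carry an inserted polyadenylation signal, are Gpr19-pAS (7) and linc1536-pAS (7) of 150416, and Gpr19-pAS (7), Slc30a9-pAS (6), linc1329-pAS (5) and linc2025-pAS (4) of the latest date label. No Control clone used here bears the latest label. Each clone is a separate line from 1 parental line and gave 1 library, so the spread within a group is that between clones, and modified clones carry no plate label. All fits took clones as independent although Control clones of a plate resemble each other, so p-values may be too small, and plate and group cannot be told apart in any of them.

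The libraries held from 62104 to 2932173 allele-assigned counts, with a median of 702020. Levels are given as CPM, counts scaled to a library total of 1000000, and they leave out reads that cannot be assigned to an allele. Of nonzero values 65.5% were even, and of values from 1 to 10 counts 84.1% were even, so counts do not behave as independent molecules. No 2 of 19110 library pairs were identical, and the closest pair differed with a chi-square per degree of freedom of 2.501. None of the listed markers of embryonic stem cells, mesendoderm, neural progenitors, epiblast, fibroblasts or trophoblast was among the captured transcripts, so the labelled cell type was not checked by them.

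In mm9 coordinates, Tnni1 spans positions 137695998 to 137707566 of chromosome 1 and linc1423 spans 138592752 to 138624769, 885 kb away. Mb spans 76845917 to 76881098 of chromosome 15. The Mb row overlaps by 5594 bp the row of Apol6, an apolipoprotein L family gene at 76875505 to 76887538. Whether counting used strand is not given in the sources used here, so reads in the shared stretch cannot be assigned to either gene. The level of Mb followed that of Apol6 over the 77 Control clones of 150126 (r = 0.83 on log2 values). Relative to plate means, over all 86 Control clones, r was 0.39. The Mb count did not exceed the Apol6 count in 69.4% of libraries. Values called Mb below are those of this row.

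RefSeq start-site windows (GRCm38.p6, 250 bases before to 50 bases after an annotated start, a different build from the counts) are shown because the far Mb start lies inside Apol6 and because Tnni1 and Mb are muscle genes. Capitals mark E-boxes, CANNTG on either strand, the letters bound by basic helix-loop-helix factors such as MyoD.
Tnni1, chr1:135799171-135799470, plus strand: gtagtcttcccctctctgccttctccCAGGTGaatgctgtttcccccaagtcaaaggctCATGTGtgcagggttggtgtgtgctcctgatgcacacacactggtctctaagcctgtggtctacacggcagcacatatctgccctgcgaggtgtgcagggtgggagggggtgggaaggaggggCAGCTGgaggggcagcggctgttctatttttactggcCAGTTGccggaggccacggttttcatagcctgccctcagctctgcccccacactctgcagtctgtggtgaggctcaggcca
Mb, near start, chr15:77022738-77023037, minus strand: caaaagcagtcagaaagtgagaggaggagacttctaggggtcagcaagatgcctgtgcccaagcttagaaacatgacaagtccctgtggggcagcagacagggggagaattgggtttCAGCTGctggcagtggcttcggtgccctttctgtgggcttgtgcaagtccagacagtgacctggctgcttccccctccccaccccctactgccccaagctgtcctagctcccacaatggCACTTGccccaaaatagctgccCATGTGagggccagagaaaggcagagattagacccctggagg
Mb, far start, chr15:77050619-77050918, minus strand: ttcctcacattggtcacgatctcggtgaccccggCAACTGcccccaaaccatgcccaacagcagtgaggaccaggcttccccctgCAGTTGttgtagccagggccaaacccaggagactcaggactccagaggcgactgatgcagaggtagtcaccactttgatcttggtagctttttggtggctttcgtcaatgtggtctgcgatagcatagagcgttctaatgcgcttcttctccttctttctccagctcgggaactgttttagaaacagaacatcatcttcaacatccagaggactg
A second Tnni1 window and a second near Mb window, at overlapping positions, are not shown and held 2 and 4 E-boxes. The Tnni1 window shown held 4 E-boxes, the near Mb window 3 and the far Mb window 2. An E-box was present in 72.3% of 32851 such windows, so its presence does not set these apart. None of these windows held CATTCC (M-CAT, in 14.7% of windows), a MEF2 site (in 3.2%), ACGTG (in 19.6%) or TATAAA (in 13.6%). The far Mb window falls within the RefSeq bounds of Apol6, positions 77045050 to 77057108 of chromosome 15, whereas the near one does not. No window was at hand for linc1423.

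All 3 transcripts varied several-fold between unmodified clones. In RNA from whole cultures, fewer cells with a transcript and less of it per cell cannot be told apart. Over the 77 Control clones of 150126, Tnni1 was at 157.3 CPM in the lowest, 362 CPM in the median and 1361 CPM in the highest clone. linc1423 was at 39.6, 204.5 and 393 CPM in the lowest, median and highest of the same clones. Mb was at 0, 41.1 and 137.6 CPM, with 1 clone at 0 counts. The upper quartile exceeded the lower by 1.95-fold for Tnni1, 2.07-fold for linc1423 and 4.50-fold for Mb.

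The date labels differed too. In the 9 Control clones of 150416, Tnni1 was at 107.9, 344.5 and 645 CPM, linc1423 at 282, 338 and 478 CPM and Mb at 0, 22.8 and 38.5 CPM in the lowest, median and highest clone. The linc1423 ranges of both dates overlapped, with the 150416 clones in the upper part. In the 22 clones of the latest date label, Tnni1 reached at most 127.6 CPM with a median of 49.2 CPM, under the lowest Control clone of 150126 in 22 of 22. The 4 group medians of Tnni1 there were 37.02 CPM in linc1329-pAS, 52.7 in Gpr19-pAS, 56.7 in Slc30a9-pAS and 57.5 in linc2025-pAS. linc1423 medians in the same groups lay between 253.5 and 335.5 CPM, within the range of Control clones of 150126. With no Control clone of that date, the date and the modifications cannot be told apart for Tnni1.

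**Figure D1:**
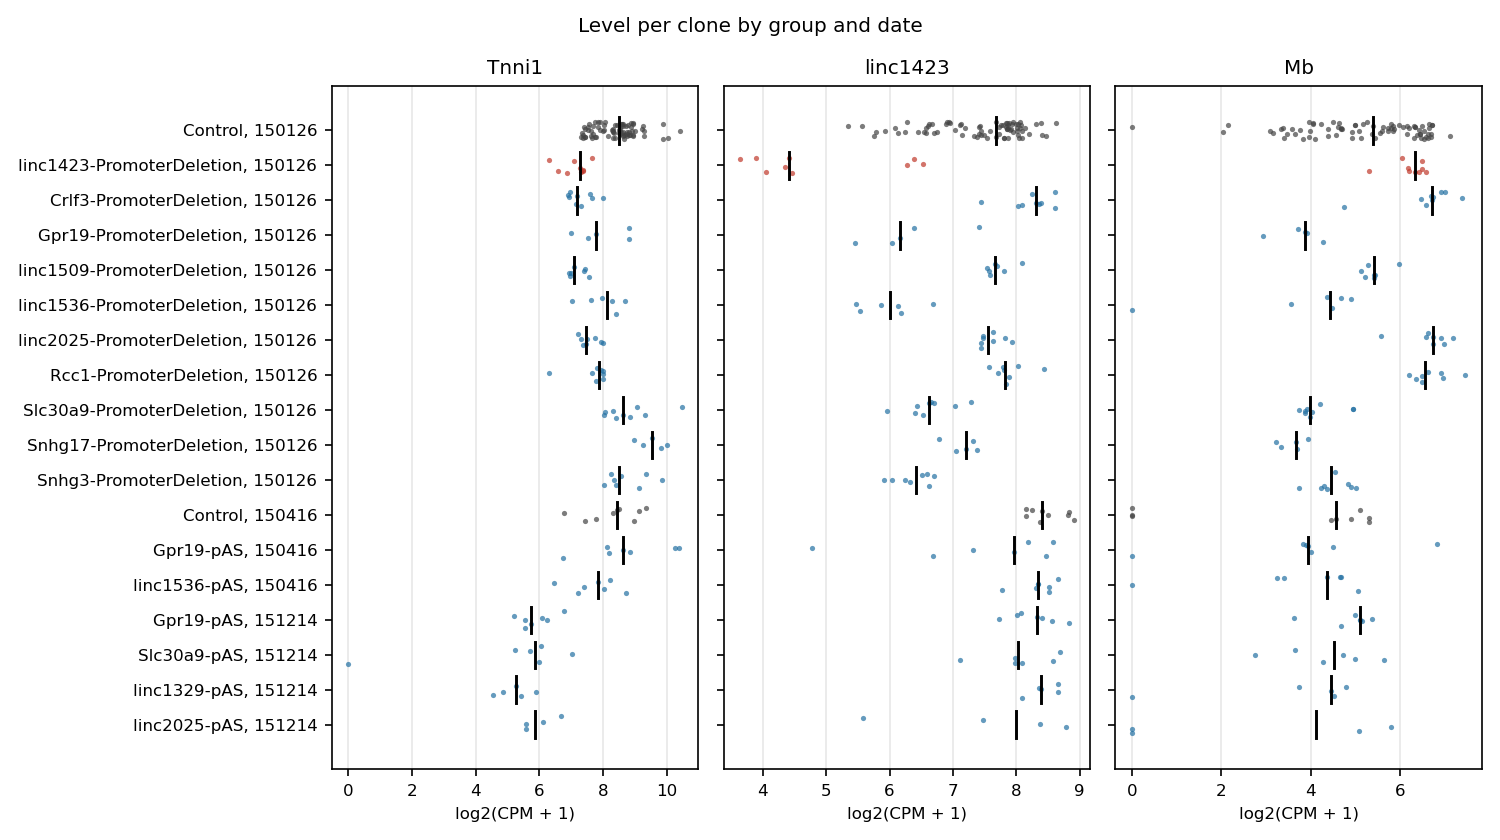
Level per clone as log2(CPM + 1) on the x axis, by group and date label on the y axis, for Tnni1, linc1423 and Mb (dots are clones, black bars mark the median CPM; Control grey, linc1423-PromoterDeletion red, other groups blue). Tnni1 is lowest in the 4 groups of the latest date, linc1423 is lowest in the linc1423 deletion, and Mb spans 0 to 137.6 CPM in Control clones of 150126.

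Clones of the same plate tended to resemble each other. Between-plate differences took 77.6% of the variance of log2(CPM + 1) of Tnni1 over Control clones of 150126, 81.6% for linc1423 and 75% for Mb, beside a median of 66.9% over 468 transcripts. The 3 clones of plate P1 had a median of 1040 CPM of Tnni1, while those of P13 had 168.5 CPM. For linc1423, the median was 353 CPM on P7 and 46.3 CPM on P23, and the 3 clones of P23 lay between 39.6 and 54.1 CPM. For Mb, the median was 104.2 CPM on P3 and 3.40 CPM on P15. Plates at the low end of Tnni1 were at the high end of linc1423: P3 and P8 had Tnni1 medians of 172.4 and 170.9 CPM and linc1423 medians of 295 and 281 CPM. P13 was an exception, with linc1423 at 178.7 CPM.

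**Figure D2:**
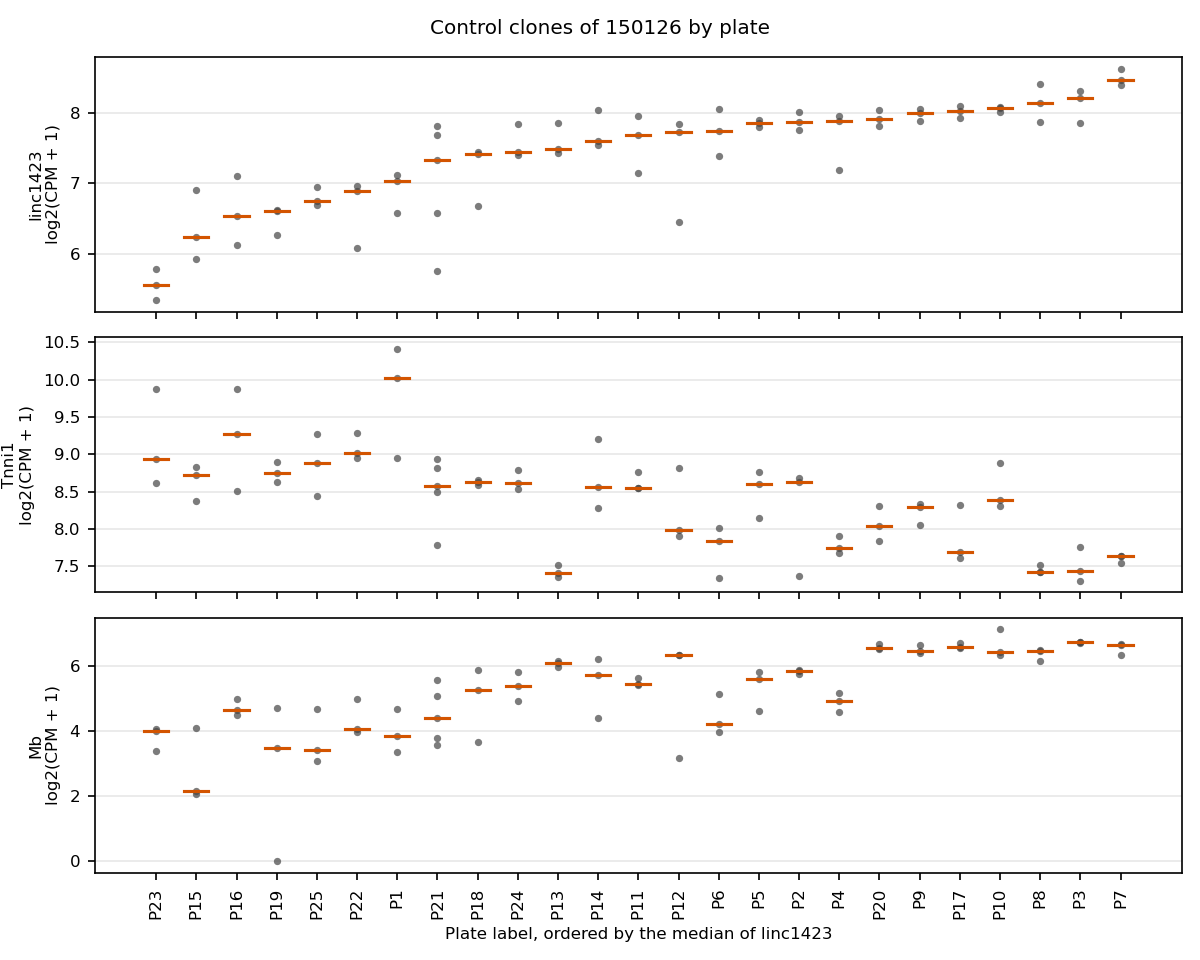
Level of linc1423, Tnni1 and Mb as log2(CPM + 1) in Control clones of 150126, on the y axis, by plate label on the x axis in the order of the linc1423 median (dots are clones, orange bars plate medians). Clones of a plate lie close together, Tnni1 tends to fall and Mb to rise along the order of linc1423, from P23 at 46.3 CPM to P7 at 353 CPM.

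Across Control clones linc1423 ran opposite to Tnni1 and along with Mb. Over 86 Control clones, with log2(CPM + 1) taken relative to the mean of the date, Pearson's r was -0.58 for linc1423 and Tnni1, 0.60 for linc1423 and Mb, and -0.31 for Tnni1 and Mb. Within 150126 alone (77 clones) the values were -0.61, 0.74 and -0.48. Within the 9 clones of 150416 they were -0.40, -0.60 and 0.39, so the sign turned for both pairs with Mb, where 3 of 9 clones had no Mb count. Without the 2 clones farthest from the median, r over all dates was -0.57, 0.61 and -0.40.

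These relations lay mostly between plates. Relative to the plate mean, r fell to -0.19 for linc1423 and Tnni1 and to 0.13 for linc1423 and Mb, and it was 0.09 for Tnni1 and Mb. Over the 25 plate means of 150126, r was -0.72, 0.86 and -0.63 for the same pairs. Over the 65 clones of 150126 modified elsewhere, relative to the group mean, it was -0.21, -0.20 and -0.07. Over the medians of their 9 groups, it was -0.44, 0.79 and -0.71. The points share plates, and library depth moved with all 3: r of the level with the log of the library total over the 77 clones was -0.50 for Tnni1, 0.63 for linc1423 and 0.66 for Mb, beside a median size of r of 0.32 over 468 transcripts. The part of depth or plate in these correlations was not tested.

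**Figure D3:**
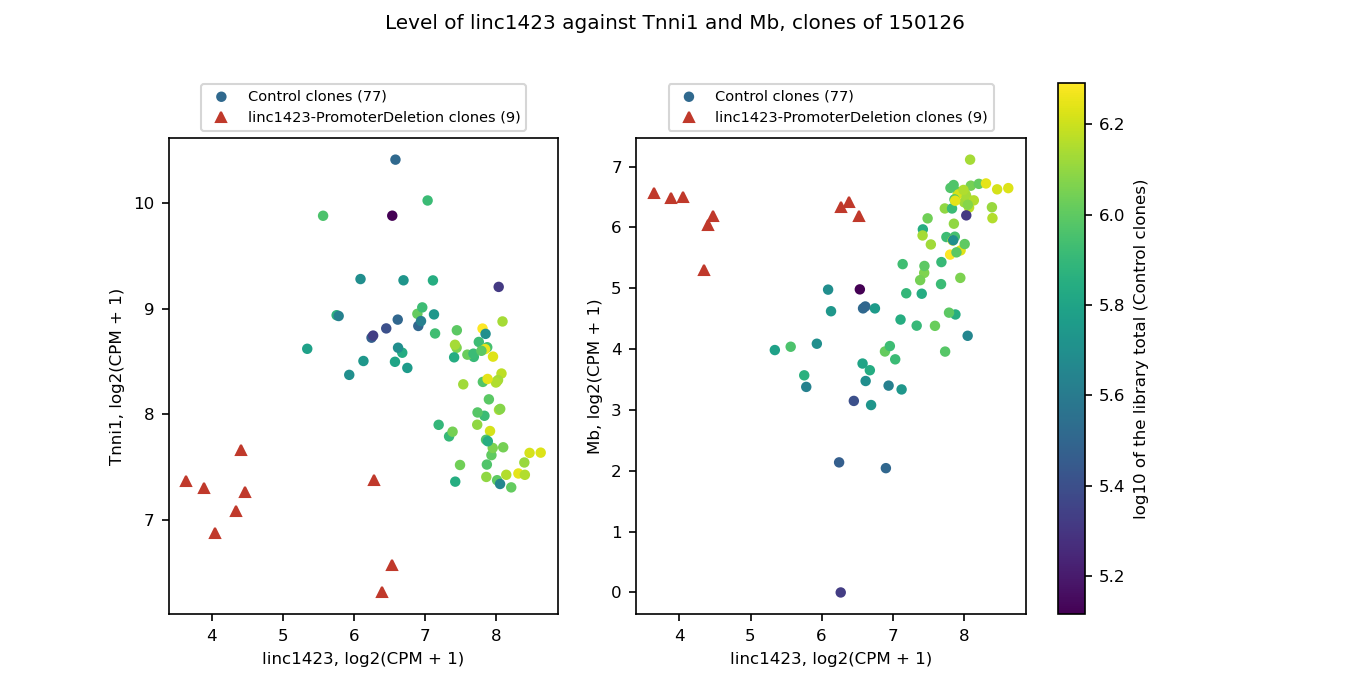
Level of linc1423 on the x axis against Tnni1 (left) and Mb (right) on the y axis, all as log2(CPM + 1), for 77 Control clones of 150126 (circles, coloured by library total) and 9 linc1423-PromoterDeletion clones (red triangles). Over Control clones r is -0.61 with Tnni1 and 0.74 with Mb. The deletion clones are low in both linc1423 and Tnni1. For Mb they lie inside the Control range, with 1 of 9 under its median.

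The transcripts most like each member differed from one member to the next. Tnni1 was most like Lad1 (r = 0.72), which encodes ladinin of basement membrane anchoring filaments and lies 7.6 kb from Tnni1. Lad1 also kept r = 0.70 relative to plate means. Next came Itm2c (0.71), an integral membrane protein gene, St8sia2 (0.66), a polysialic acid synthase, Ttll12 (0.64) and the kinase gene Map3k6 (0.59), which fell to 0.41, 0.51, 0.16 and 0.27 relative to plate means. Parvb (-0.68), a focal adhesion gene, and Cdkn1b (-0.67), the cyclin-dependent kinase inhibitor p27, ran most opposite to Tnni1. linc1423 was most like B3gnt7 (0.86), a glycosyltransferase gene, Bhlhe40 (0.85), a transcriptional repressor that responds to low oxygen, Myc (0.80), Uchl1 (0.80) and Manbal (0.76). Relative to plate means these 5 fell to 0.49, 0.42, 0.43, 0.46 and 0.54. Ttll12 (-0.75) and Zfp324 (-0.67) were most opposite to linc1423. With the overlapping Apol6 row left out, Mb was most like Npb (0.71), 1810043H04Rik (0.69), the heme-binding protein gene Hebp1 (0.69), Rmnd5b (0.68) and the DNA ligase gene Lig1 (0.67). Mb was most opposite to the corepressor gene Trim28 (-0.60) and the non-muscle myosin gene Myh9 (-0.59). Relative to plate means the first 5 fell to 0.32, 0.33, 0.27, 0.41 and 0.31. All are r over 86 Control clones, of which the median size over all transcripts was 0.24 for Tnni1, 0.32 for linc1423 and 0.27 for Mb.

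The 2 allele columns of Tnni1 rose and fell together. Over the 77 Control clones of 150126, r between the first and second column was 0.93 for Tnni1 and 0.69 for linc1423. The first column held 46.7% of Tnni1 counts and 52.6% of linc1423 counts. Which column is which strain is not given in the sources used here. The allele ratio is the log2 of the first over the second column, with 0.5 added to each, in clones with at least 20 counts. Tnni1 had a median ratio of -0.22, from -0.92 to 0.32, and linc1423 of 0.04, from -3.12 to 1.43. The Tnni1 ratio was lower in clones with less Tnni1 (r = 0.61, 77 clones), and it did not track that of linc1423 (r = -0.13, 75 clones).

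Mb counts lay almost wholly in 1 column. In Control clones of 150126 the first column held 98.2% of Mb counts, and 98.3% of Apol6 counts. Of 468 transcripts, 22 (4.7%) had at least 95% of their counts in 1 column. The overlap with Apol6 leaves the source of these Mb reads undetermined, so the allele column of Mb and that of Apol6 cannot be told apart.

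linc1423 was lower in the clones labelled with its promoter deletion. The 9 deletion clones had 12, 66, 14, 18, 2, 11, 97, 63 and 25 counts of linc1423 in clones 1 to 9, where numbers only name the clones. These are 15.5, 91.5, 13.8, 21.1, 19.3, 11.5, 82.7, 76.4 and 20.2 CPM. In 6 of 9 clones linc1423 was under the lowest of 77 Control clones, and clones 2, 7 and 8 lay within the Control range but under its median. The log2 fold change was -2.24 ± 0.31 (SE, 9 against 77 clones), and it was called.

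The loss was not confined to 1 column in most clones. Clones 2, 7 and 8 had 2, 6 and 4 counts of linc1423 in the first column and 64, 91 and 59 in the second. Clones 1, 3, 4, 6 and 9 had 0, 0, 4, 3 and 5 counts in the first column and 12, 14, 14, 8 and 20 in the second, or 8.36 to 16.4 CPM, where Control clones had a median of 97.6 CPM and a lowest value of 19.9 CPM in that column. Clone 5, with only 103716 counts in its library, had 2 and 0. So 3 clones kept a second column inside the Control range, and 5 were low in both columns. The series design describes the deletion as heterozygous, and the cause of the low second column in these 5 was not tested. Only 4 clones had the 20 counts set for a ratio, and these passed through their second-column counts. The linc1423 ratio was called in the test over all transcripts, and for this reason nothing is read from that call.

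**Figure D4:**
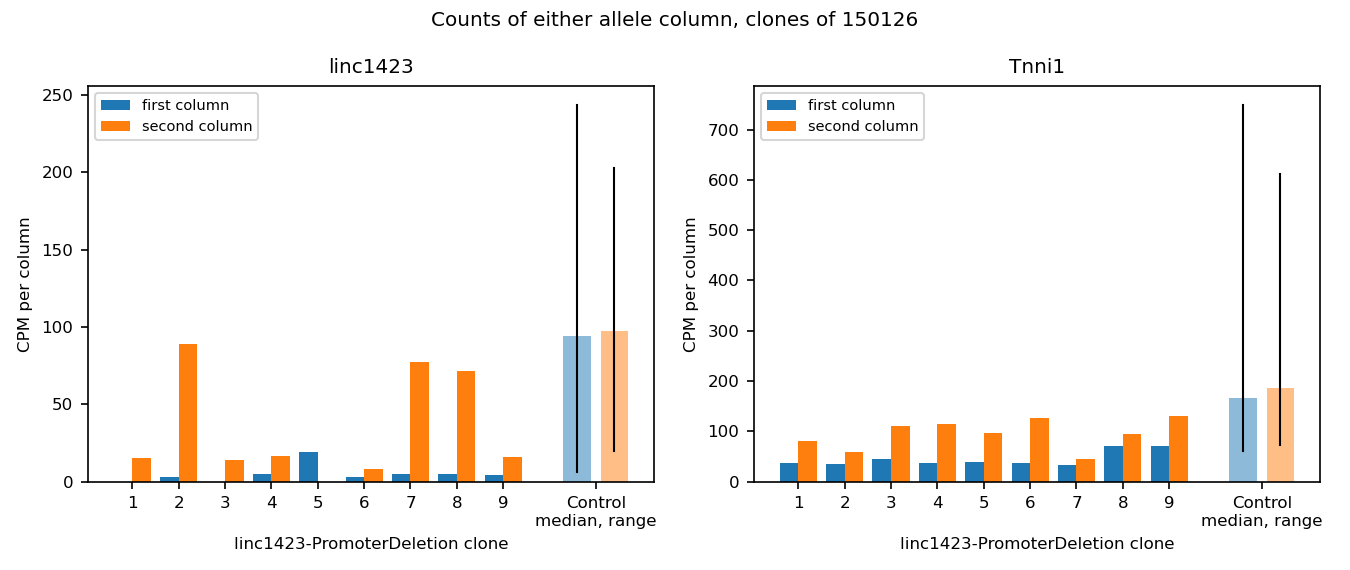
CPM in the first (blue) and second (orange) allele column on the y axis, for linc1423 (left) and Tnni1 (right), in each of 9 linc1423-PromoterDeletion clones on the x axis, with the median (pale bar) and range (line) of 77 Control clones of 150126. Clones 2, 7 and 8 keep linc1423 in the second column, and Tnni1 is lower than the Control median in both columns of all 9 clones.

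Tnni1 fell in the linc1423 deletion. Clones 1 to 9 had 116.3, 94.3, 156.6, 152.5, 134.98, 164.1, 78.4, 164.98 and 201.4 CPM of Tnni1, from 14 counts in clone 5 to 249 in clone 9. In 6 of 9 clones Tnni1 was under the lowest Control clone, 9 of 9 were under the Control median of 362 CPM, and 14 of 77 Control clones lay at or under the highest deletion clone. The log2 fold change was -1.42 ± 0.28 (SE, 9 against 77 clones) and was called, where the median over all transcripts was -0.03. In this comparison 28.1% of 469 transcripts were called, 16% lower and 12.2% higher, and nothing is read from the members' calls against these shares. Deletion libraries had a median of 852393 counts and Control libraries of 150126 one of 924005. Control plates P13, P8 and P3 had Tnni1 medians between 168.5 and 172.4 CPM without any deletion.

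Against the 65 clones of 150126 modified elsewhere, a reference in which 27.2% of 475 transcripts were called, Tnni1 was at -1.16 and linc1423 at -2.01, and both were called. The direction in the deletion stands beside the opposite one among Control clones: both linc1423 and Tnni1 were low in the deletion, whereas Control clones low in linc1423 tended to be high in Tnni1.

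Both allele columns of Tnni1 were lower, the first by more. The first column was at 34.1 to 71.2 CPM in deletion clones (median 37.6) and 61.7 to 749 CPM in Control clones (median 166.7), with 7 of 9 under the lowest Control clone. The second column was at 44.3 to 130.2 CPM (median 96.4) against 72.7 to 611.5 CPM (median 185.9), with 2 of 9 under the lowest Control clone. The ratio was -1.13, -0.68, -1.29, -1.60, -1.22, -1.74, -0.37, -0.42 and -0.87 in clones 1 to 9, negative in every clone. Every clone was also negative in the Crlf3, Rcc1 and linc2025 deletions, with highest ratios of -0.48, -0.46 and -0.1. Control clones of 150126 ran from -0.92 to 0.32. Clones 2, 7 and 8, which kept linc1423 in the second column, were at -0.68, -0.37 and -0.42. Their Tnni1 totals were 94.3, 78.4 and 164.98 CPM, of which those of clones 2 and 7 were the lowest of the group. Clones 1, 3, 4, 6 and 9, low in both linc1423 columns, lay between -1.74 and -0.87. Whether the Tnni1 ratio follows the linc1423 columns was not tested. Clone 5 had 14 counts of Tnni1 and was left out of the test. Over the other 8 clones, with 68 to 249 Tnni1 counts, the mean absolute deviation was 0.75 ± 0.51 (SD). It was 0.27 ± 0.18 in 77 Control clones, which had a median of 270 counts. On Control plates P13, P8 and P3, with Tnni1 medians of 168.5 to 172.4 CPM, ratios ran from -0.869 to 0.215. The part of level and depth in the deviation was not tested. Tnni1 and linc1423 were among 6 of 446 transcripts called by allele ratio (1.35%, two-sided permutation test with Benjamini-Hochberg adjustment). The ratios were among the values that chose the members, so nothing is read from these calls against this share.

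The allelic call of Tnni1 rested on the reference. The difference in deviation was 0.49 against Control clones of 150126, 0.37 against Control clones of any date and 0.20 against clones of 150126 modified elsewhere, and Tnni1 was not called with the latter references. Among groups of 150126 modified elsewhere with a Tnni1 median under that of Control clones, ratios varied. The median ratio was -0.87 in Crlf3-PromoterDeletion at 143.6 CPM of Tnni1, -0.58 in linc2025-PromoterDeletion at 176.1 CPM, -0.68 in Rcc1-PromoterDeletion at 232 CPM -0.36 in linc1509-PromoterDeletion at 133.9 CPM, -0.52 in linc1536-PromoterDeletion at 278.5 CPM (5 clones), 0.11 in Snhg3-PromoterDeletion at 357.6 CPM and -0.01 in Gpr19-PromoterDeletion (4 clones), whose 5 clones had a Tnni1 median of 217.99 CPM. The deletion clones had a median ratio of -1.0 at 152.5 CPM. At the latest date it was -0.89 in Gpr19-pAS (6 clones) and -2.32 in Slc30a9-pAS (3 clones), while the 1 clone with enough counts was at -2.04 in linc1329-pAS and at 0 in linc2025-pAS.

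Mb was not called in the linc1423 deletion. Clones 1 to 9 had 69, 52, 90, 61, 4, 90, 99, 66 and 80 counts, or 38.6 CPM in the lowest, 80.1 in the median and 94.1 in the highest clone. All 9 lay inside the Control range of 0 to 137.6 CPM, 8 of them above the Control median. The log2 fold change was 0.64 ± 0.33 (SE, 9 against 77 clones). In the same clones 6 of 9 had no Mb count in the second column, and the ratio was not called.

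Other captured genes within 1 Mb of linc1423 were also called. Of 22 besides Tnni1, 16 were tested and 7 were called (43.8%), beside 28.1% of all transcripts called in this comparison. The difference between these shares was not tested. Of the 7 genes called, 5 were lower and 2 higher. By edgeR with Benjamini-Hochberg adjustment, the smallest p belonged to Phlda3, a repressor of Akt signalling, which fell from 3395 ± 653 CPM to 1969.9 ± 384 CPM (SD), a log2 fold change of -0.78 ± 0.11 (SE, adjusted p = 5.22e-08). Ddx59, an RNA helicase gene, fell by 0.43 (adjusted p = 0.000336) and Nr5a2, the nuclear receptor LRH-1, by 0.49 (adjusted p = 0.000534). The noncoding linc1421 fell by 0.71 (adjusted p = 0.0228), Lad1 fell by 0.66 (adjusted p = 0.0255) and Kif21b, a kinesin gene, rose by 0.90 (adjusted p = 0.00168), all on the log2 scale. linc1422, the nearest at 5.4 kb, was at -0.05 (adjusted p = 0.852). None of the 16 was called by allele ratio, where Ddx59 came nearest (adjusted p = 0.0541, permutation test, unadjusted p = 0.00097).

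Of 38 muscle genes listed, 4 were captured: Tnni1, Mb, Tnnt2 and Csrp1. Tnni1 fell, and none of the others passed the test, with Tnnt2, cardiac troponin T, at 0.25 ± 0.28 (adjusted p = 0.545) and Csrp1 at 0.03 ± 0.11 (adjusted p = 0.852). The median log2 fold change of the 4 was 0.14. Tnnt2 lies 844 kb from linc1423 and was at 0 to 220 CPM in Control clones and 68.5 to 160.8 CPM in deletion clones. Of 24 oxygen response genes listed, 2 were captured, and Bhlhe40 rose by 0.67 (adjusted p = 0.0198) while the lactate transporter gene Slc16a3 was at 0.04 (adjusted p = 0.948). Both ran with Mb over Control clones of 150126, with r of 0.69 and 0.65, and with linc1423, with r of 0.85 and 0.74.

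The 3 transcripts were also called in groups whose modification lies on another chromosome. In 11 such groups, all promoter deletions of 150126 compared with the same 77 Control clones and both pAS groups of 150416 with the same 9, Tnni1 was called lower in 4 and higher in 1. linc1423 was called lower in 4 and higher in 1, and Mb lower in 4 and higher in 3 of 9 groups where its count allowed a test. The members were chosen with these levels known, so the counts are a description. Over all transcripts pooled, 16.2% of tests called a transcript lower and 12.4% called one higher. The share called in either direction was 43.1% in Crlf3-PromoterDeletion, 18.1% in Gpr19-PromoterDeletion, 12.7% in linc1509-PromoterDeletion, 32.6% in linc1536-PromoterDeletion, 52% in linc2025-PromoterDeletion and 46.7% in Rcc1-PromoterDeletion. It was 28.1% in Slc30a9-PromoterDeletion, 29.5% in Snhg17-PromoterDeletion, 36.9% in Snhg3-PromoterDeletion, 1.47% in Gpr19-pAS and 7.8% in linc1536-pAS.

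In 2 of these groups the log2 fold change of Tnni1 was close to the -1.42 of the linc1423 deletion, and the differences between groups were not tested. Its log2 fold change was -1.45 ± 0.31 (SE) in linc1509-PromoterDeletion (7 clones) and -1.31 ± 0.27 in Crlf3-PromoterDeletion (9 clones). In linc1509-PromoterDeletion the lowest, median and highest clone had 121.96, 133.9 and 187.1 CPM, and in Crlf3-PromoterDeletion 118.8, 143.6 and 256 CPM. It was -1.02 ± 0.28 in linc2025-PromoterDeletion (8 clones) and -0.91 ± 0.28 in Rcc1-PromoterDeletion (8 clones). These 4 groups overlapped Control clones. linc1423 was higher in the Crlf3 group, at 0.60 ± 0.21, and not called in the other 3. Tnni1 was higher in Snhg17-PromoterDeletion, at 1.00 ± 0.29 (5 clones), where clones lay between 496 and 1031 CPM, but without clone 2 it was not called.

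linc1423 was lower in 4 groups, whose median library totals were all under the Control median of 924005 counts. Its log2 fold change was -1.56 ± 0.35 in linc1536-PromoterDeletion (6 clones, median library total 214684) and -1.22 ± 0.27 in Snhg3-PromoterDeletion (8 clones, 790422). It was -0.87 ± 0.26 in Slc30a9-PromoterDeletion (9 clones, 261145) and -1.16 ± 0.37 in Gpr19-PromoterDeletion (5 clones, 302547). The median of linc1423 was 63.1, 84.5, 97.9 and 70.6 CPM in these 4 groups, in that order, all above the 20.2 CPM of the linc1423 deletion and inside the Control range. Tnni1 was not called in any of the 4. In Snhg17-PromoterDeletion, whose median total of 688021 was also under that of Control clones, linc1423 was at -0.42 ± 0.31 and not called.

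Mb was higher in 3 groups and lower in 4 others. On the log2 scale it rose by 0.97 ± 0.32 in Crlf3-PromoterDeletion, 1.03 ± 0.33 in linc2025-PromoterDeletion and 0.98 ± 0.33 in Rcc1-PromoterDeletion, whose median library totals were 1567112, 1316132 and 1482301. Its medians there were 104.5, 105.98 and 93.5 CPM. In linc1509-PromoterDeletion, with a median total of 1355928, Mb was at -0.33 ± 0.40 and not called. Its log2 fold change was -2.13 ± 0.62 in Snhg17-PromoterDeletion, -1.42 ± 0.47 in Slc30a9-PromoterDeletion, -1.16 ± 0.44 in Snhg3-PromoterDeletion and -1.86 ± 0.68 in Gpr19-PromoterDeletion, with medians of 11.6, 14.9, 21.01 and 13.7 CPM. In Gpr19-PromoterDeletion, whose clones had 2 to 10 Mb counts, the calls of linc1423 and Mb ended whichever of the 5 clones was left out. In linc1536-PromoterDeletion Mb was at -1.42 ± 0.60 and was not called by edgeR but was by DESeq2. In Snhg17-PromoterDeletion, at a median of 688021 counts, Tnni1 was higher and Mb lower. The part of depth in these differences was not tested.

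**Figure D5:**
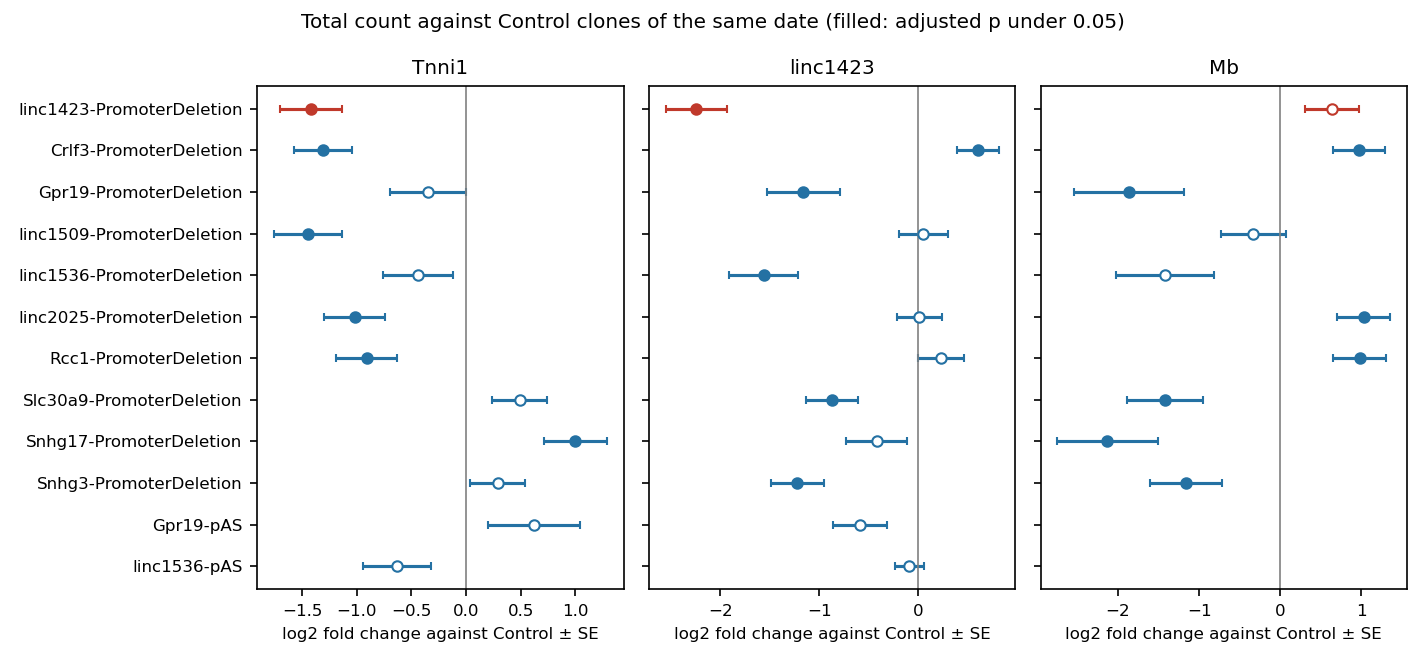
Log2 fold change of the total count against Control clones of the same date with its standard error, on the x axis, for 12 groups on the y axis and each of Tnni1, linc1423 and Mb (red linc1423-PromoterDeletion, blue other groups; filled where the adjusted p was under 0.05; Mb was tested in neither pAS group). linc1423 is lowest in its own deletion at -2.24, while Tnni1 at -1.42 there lies beside -1.45 and -1.31 in the linc1509 and Crlf3 deletions.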

How the data were processed

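Whole-number counts per transcript, 1 column per parental allele, were taken as deposited by the authors, with no normalization that the values show. The submitters' processing notes name the build mm9. How reads were aligned, counted and assigned to alleles, and whether strand was used, is not given in the sources used here. Of 692 rows listed, 1 repeated row was dropped. The total is the sum of both columns, tested with edgeR 4.0.16 (TMM, quasi-likelihood F test, mean count of at least 10, Benjamini-Hochberg over all transcripts, threshold 0.05) in R 4.3.3. Allele ratios were tested by permutation of the mean absolute deviation in Python 3.11.15 with NumPy 2.4.6, adjusted likewise. Both tests were run on simulated data of independent clones without plates, so the simulations do not show how the tests behave where clones share a plate. DESeq2 1.42.0, library size alone, no filter, other references and left-out clones were the alternatives. P-values set a group difference against the spread between clones of 1 parental line, and they take clones of a shared plate as independent. Members, gene lists and rules were chosen with earlier results of these data known. Named genes were the members, up to 6 called genes within 1 Mb by p, the 5 most and 2 least correlated transcripts per member, and list members. Rows that overlap a member were left out of its correlated transcripts.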

Additional observations from a re-analysis of the deposited data

Results flagged for a closer look

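Of 51 sets of 4 to 10 clones of 1 group and 1 transcript, 6 held a clone whose gap to its nearest neighbour was a larger part of the range than Dixon's 95% critical value, and chance flags about 1 set in 20. Tnni1 was at 77.1 CPM in clone 3 of Rcc1-PromoterDeletion (92 counts), where the next lowest of 8 clones had 199.03 CPM. Tnni1 was at 1415 CPM in clone 2 of Slc30a9-PromoterDeletion (322 counts in a library of 227492), where the next highest of 9 clones had 636 CPM. linc1423 was at 345.7 CPM in clone 5 of Rcc1-PromoterDeletion beside 260 CPM, and at 272.7 CPM in clone 3 of linc1509-PromoterDeletion beside 222 CPM. Mb was at 61.9 CPM in clone 6 of linc1509-PromoterDeletion beside 42.04 CPM. Mb was at 111.9 CPM in clone 7 of Gpr19-pAS of 150416, which is 11 counts in a library of 98278, beside 21.5 CPM.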

How the results depend on the processing

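All but 9 of the recomputed values were taken as unchanged. Tested effects had to keep their direction and side of the threshold, and levels to stay within the spread between clones. Correlations had to stay within an interval around r, and shares of variance and numbers of calls within a set margin. Within that margin, Mb was called lower in 5 groups with DESeq2 and 3 with no filter, against 4. linc1423 was called lower in 3 with clones left out, against 4. In the linc1423 deletion the calls of linc1423 and Tnni1 totals held under DESeq2, library size alone, no filter and both other references. With each of 9 clones left out, linc1423 lay between -2.49 and -2.10 and Tnni1 between -1.50 and -1.33. The allele deviation of Tnni1 lost its call against Control clones of any date (0.37) and clones modified elsewhere (0.20), and the cause was not tested. The number of transcripts called by allele ratio was 10 with the fraction of the first column, 2 with Control clones of any date and 1 with clones modified elsewhere, against 6. linc1423 was among those called each time and was the 1 called against clones modified elsewhere. Nothing is read from its call. The higher Tnni1 call in 1 group modified elsewhere numbered 0 to 1 with clones left out. Relative to plate means, r was -0.19 for linc1423 and Tnni1 and 0.13 for linc1423 and Mb, and for Tnni1 and Mb it reversed to 0.09, and the cause was not tested. Mb rests on few counts in shallow libraries, and at 0 counts its absence cannot be read. No paired analysis was possible because clone numbers follow accession order and pair nothing between groups.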
